A study of Bos taurus with 9 samples.

Results

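The comparison described here sets bovine chromaffin cells given the neuropeptide PACAP directly against the same kind of cells given the cytokine TNF-alpha. Its members are the 3 arrays titled as PACAP-treated and the 3 titled as TNF-treated, 6 of the 9 arrays of the series, chosen by their titles and not by any measured value. Chromaffin cells were dissociated from collagenase-perfused bovine adrenal glands, purified by differential plating and kept in medium that held 5% fetal calf serum and the antimitotic agent cytosine arabinoside. The PACAP group received 100 nM PACAP-38 for 6 h and the TNF group 10 nM TNF-alpha for 6 h, both at 37 °C, so that the agents were compared at unequal doses. The remaining 3 arrays came from cells without treatment, and they serve only as a reference level. According to the design text the arrays are technical repeats, and the animals or cultures behind them are not named. The p-values therefore reflect only variation from array to array, possibly technical.

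Chromaffin cells make up the adrenal medulla, where they synthesise catecholamines and store them with peptides in secretory granules. PACAP is released by the splanchnic nerve onto these cells and acts through G protein-coupled receptors that raise cyclic AMP and calcium. TNF-alpha is an inflammatory cytokine whose receptors signal to the transcription factor NF-kappa-B and to stress-activated kinases. The direct comparison asks at which transcripts cells given one agent differed from cells given the other, in keeping with the study's question of whether the 2 agents act on separate sets of genes.

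Each array carried 24016 bovine probesets besides its controls, and a probeset is a group of short probes read together as 1 transcript level. Levels are on the log2 scale, on which a difference of 1 is 2-fold. The table used here does not pair probesets with genes, and the RefSeq gene table matched 0 of their IDs, so results are given by probeset. For the same reason the label of the cells could not be checked against chromaffin markers or against markers of other adrenal cell types, and no pathway could be described. In material from whole cultures, fewer cells of a type and less RNA per cell cannot be told apart.

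The 6 arrays had medians of 6.65 to 6.71 (log2), a likeness largely set in advance by the processing, which equalises arrays. Replicates 1 and 2 lay close together in both groups, with a median absolute difference of 0.114 between the PACAP arrays and of 0.083 between the TNF arrays (log2). Replicate 3 stood further off, at 0.150 and 0.153 from the other PACAP arrays and at 0.173 and 0.184 from the other TNF arrays. In the TNF group, 2.05% and 2.12% of probesets were at least 2-fold apart between replicate 3 and replicates 1 and 2, against 0.00416% between replicates 1 and 2. TNF replicate 3 also had the largest loss of signal towards the 5' end, measured as the 3' level minus the 5' level. Averaged over 6 bovine control genes it was 0.65 (log2), where the other 5 arrays had 0.28 to 0.51. For 8 pairs of spike-in control probesets, some of them on the same transcript, the same measure was 1.52 on TNF replicate 3 and 0.95 to 1.08 on the others. The part of these array differences in the results was not tested. Counts of calls and the position of untreated cells are also given with replicate 3 arrays left out. The numbers of calls per size class are given without these arrays only beside the position of untreated cells. The level bins and the comparison by ID number used all 6 arrays.

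PACAP-treated and TNF-treated cells differed at a minority of probesets, in both directions. Of those tested, 704 were higher with PACAP (2.93%) and 896 were lower with PACAP (3.73%), together 6.66% (limma on the 6 arrays, Benjamini-Hochberg adjusted p under 0.05). Differences of at least 2-fold were called at 226 probesets higher with PACAP (0.941%) and at 234 lower with PACAP (0.974%). With the replicate number as a block, which pairs each PACAP array with the TNF array of its number, 1188 were higher and 1461 lower. With the same block, but with the close replicates 1 and 2 of each group averaged into 1 unit, 627 were higher and 698 lower. Within replicates 1 and 2 the counts were 1621 and 2205, of which 313 and 406 were at least 2-fold. Leaving out TNF replicate 1 lowered the counts to 203 higher and 229 lower, and leaving out TNF replicate 2 lowered them to 213 and 226. Leaving out PACAP replicate 1 gave 313 and 368, and leaving out PACAP replicate 2 gave 247 and 259. Of these, 134 and 149 were at least 2-fold when TNF replicate 1 was out, 140 and 136 when TNF replicate 2 was out, and 159 and 155 when PACAP replicate 2 was out. When TNF replicate 3 was out, 972 were higher and 1272 lower, of which 269 and 334 were at least 2-fold. When PACAP replicate 3 was out, 762 were higher and 1008 lower, of which 267 and 272 were at least 2-fold.

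**Figure D1:**
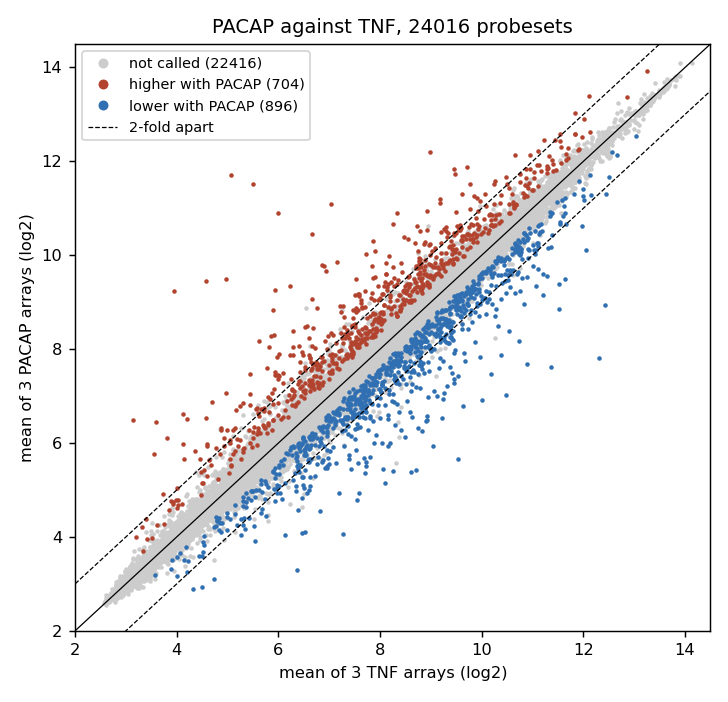
Mean log2 level of each of 24016 probesets over the 3 TNF arrays (horizontal) and the 3 PACAP arrays (vertical); red points are the 704 called higher with PACAP, blue points the 896 called lower, and dashed lines mark a 2-fold difference. The farthest red points lie farther from the diagonal than the farthest blue points, at about 101-fold against 22.4-fold.

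Most called differences were modest, and their typical size was alike in the 2 directions. The median size was 0.76 (log2) among probesets higher with PACAP and 0.72 among those lower with PACAP, and the smallest differences called were 0.33 and 0.32. Of the probesets higher with PACAP, 212 differed by less than 1.5-fold, 266 by 1.5- to 2-fold and 184 by 2- to 4-fold. Of those lower with PACAP, 326, 336 and 178 fell into the same classes. The directions parted at the far end of the scale. At 16-fold or more stood 7 probesets higher with PACAP and 1 lower, whereas at 4- to 16-fold there were 35 higher and 55 lower. Whether the size distributions differ was not tested.

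The largest difference in favour of PACAP was at probeset Bt.11212.1.S1_at. Its log2 level was 11.64, 12.04 and 11.47 on PACAP arrays 1, 2 and 3, and 4.87, 4.80 and 5.51 on the TNF arrays. All PACAP values thus lay far above all TNF values, and the TNF values overlapped with those of untreated cells, which were 4.94, 4.72 and 5.37. The difference was 6.65 on the log2 scale (SE 0.23), or about 101-fold. Its 95% interval was 6.11 to 7.20 (limma adjusted p = 0.000215).

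The next largest was at Bt.12930.1.S1_a_at. It stood at 11.11, 11.38 and 12.08 on the PACAP arrays and at 5.01, 5.04 and 6.45 on the TNF arrays. Replicate 3 was the highest array of each group, and in untreated cells too, where the values were 4.66, 4.34 and 6.84. The difference of the means was 6.03 (SE 0.43), or about 65.2-fold. Its 95% interval was 4.99 to 7.06 (limma adjusted p = 0.00121). Between arrays of the same number the difference was 6.10, 6.34 and 5.64, a narrower range than that of the levels. With the replicate block its SE was 0.14.

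The largest difference in favour of TNF was at Bt.4310.1.A1_at, whose level was 12.43, 12.34 and 12.13 on the TNF arrays and 7.82, 7.96 and 7.67 on the PACAP arrays. The arrays of each group agreed closely here, replicate 3 included. Untreated cells had 8.08, 8.16 and 8.94, each above the PACAP array of its number. PACAP minus TNF was -4.48 (SE 0.11), a 22.4-fold lower level with PACAP, with a 95% interval of -4.76 to -4.21 (limma adjusted p = 8.54e-05).

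At Bt.552.1.S1_at, second in this direction, TNF replicate 3 stood apart from its group. The TNF arrays read 9.92, 9.93 and 8.76, while the PACAP arrays read 5.64, 5.51 and 5.83 and the untreated arrays 5.63, 5.50 and 5.64. The PACAP and untreated values overlapped, and both lay well below every TNF value. PACAP minus TNF was -3.87 (SE 0.31), or about 14.7-fold lower with PACAP. Its 95% interval was -4.62 to -3.12 (limma adjusted p = 0.00171). Between same-numbered arrays PACAP minus TNF was -4.28, -4.42 and -2.93.

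**Figure D2:**
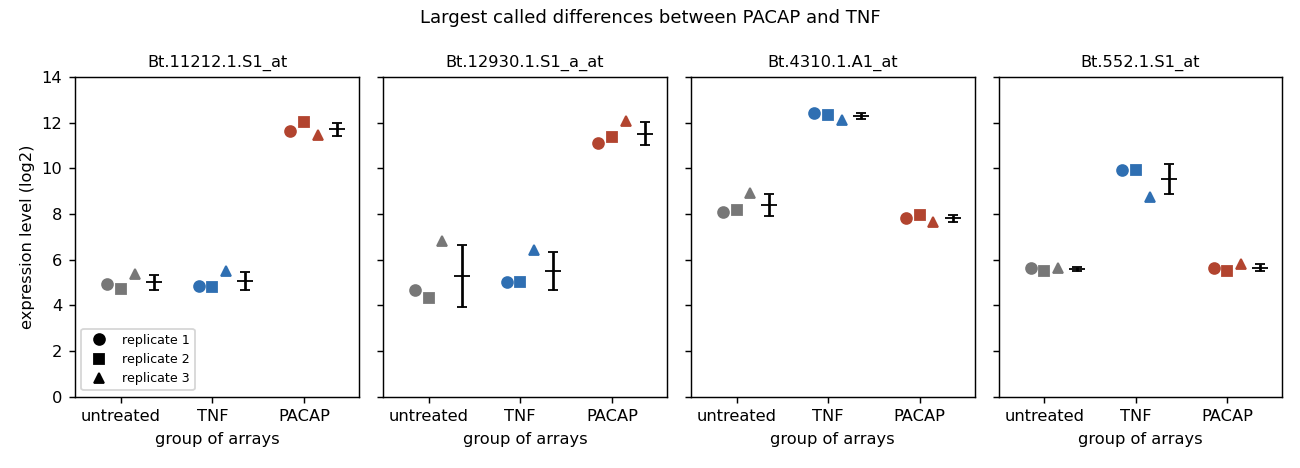
Log2 level of the 2 probesets with the largest called difference in each direction on every array (circle, square and triangle for replicates 1, 2 and 3), with the mean and SD of each group of 3 in black. In the 2 left panels the PACAP arrays lie at 11.11 or above and all other arrays at 6.84 or below; in the 2 right panels the TNF arrays lie apart from the rest.

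The 10 probesets that followed in each direction kept mostly to the same layout. No detection calls were used, and the lower group of several of these probesets was dim, so their folds are approximate. The same holds for Bt.11212.1.S1_at, Bt.12930.1.S1_a_at and Bt.552.1.S1_at above. Their lower groups had means of 5.06, 5.50 and 5.66, below the median level of 6.67 of all probesets tested. Those ranked 3 to 12 among the probesets higher with PACAP differed by about 8.67- to 39.4-fold, with mean levels of 6.49 to 12.19 on the PACAP arrays and of 3.13 to 8.98 on the TNF arrays. The untreated mean was nearer to the TNF mean at 10 of these 10. Those ranked 3 to 12 among the probesets lower with PACAP differed by 8.44- to 13.5-fold, with means of 3.29 to 8.93 on the PACAP arrays and of 6.37 to 12.42 on the TNF arrays, and the untreated mean was nearer to the PACAP mean at 9 of 10. The exception, ranked the sixth, had a mean of 7.50 ± 0.21 (SD, n = 3) in untreated cells. This mean lay between 5.42 ± 0.32 with PACAP and 8.71 ± 0.46 with TNF. Nearer did not always mean level with PACAP. At the ninth, for example, untreated cells had 5.30 ± 0.04, PACAP-treated cells 4.06 ± 0.16 and TNF-treated cells 7.27 ± 0.31. Both probesets were singled out after their values were seen.

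The untreated arrays did not enter the test, so they show where each called difference lay relative to untreated cells. Among the 704 probesets higher with PACAP, the untreated mean was nearer to the TNF mean at 652, or 92.6%. Their median level was 7.87 (log2) in untreated cells, 7.89 with TNF and 8.91 with PACAP. By these medians the set stood higher with PACAP than in both other groups, which were alike. The share nearer to TNF was 90.1% of the 212 probesets that differed by under 1.5-fold, 92.1% of the 266 at 1.5- to 2-fold, 94.6% of the 184 at 2- to 4-fold and 42 of the 42 at 4-fold or more. These positions are descriptions, since the comparison with untreated cells was not tested here.

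Among the probesets lower with PACAP, the position of the untreated mean moved with the size of the difference. Of the 326 that differed by under 1.5-fold, the untreated mean was nearer to TNF at 77.0%. Over these probesets the median of PACAP minus untreated was -0.52 (log2), against -0.04 for TNF minus untreated. At 1.5- to 2-fold the share nearer to TNF was 71.4% of 336, and at 2- to 4-fold it was 49.4% of 178. In that 2- to 4-fold class the medians were -0.59 for PACAP minus untreated and 0.63 for TNF minus untreated. They were of like size and opposite sign, but the untreated mean was nearer to TNF at 88 probesets and to PACAP at 90. These 2 medians thus do not show that single probesets shifted both ways. Of the 56 that differed by 4-fold or more, the untreated mean was nearer to the PACAP mean at 48, or 85.7%, with a median TNF minus untreated of 2.02 and a median PACAP minus untreated of -0.38. By these medians, PACAP-treated cells lay furthest from untreated cells at the small differences in this direction, and TNF-treated cells at the large ones. Over all 896 the untreated mean was nearer to TNF at 587 (65.5%), and over the 234 of at least 2-fold at 96 (41.0%). It lay between the 2 treated means at 451 of the 896, at 174 of those 234, and at 96 of the 226 that were at least 2-fold higher with PACAP. At 129 of the 226 it lay below both means. An alternative added after seeing the data left out the replicate 3 arrays of all groups and took calls and sizes anew, so its probesets differ. Its 4 size classes held 1057, 742, 333 and 73 probesets lower with PACAP. The share of them nearer to TNF was 77.1%, 72.5%, 51.7% and 15.1%. For those higher with PACAP, at 777, 531, 257 and 56 probesets, it was 77.9%, 85.1%, 93.0% and 100%.

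**Figure D3:**
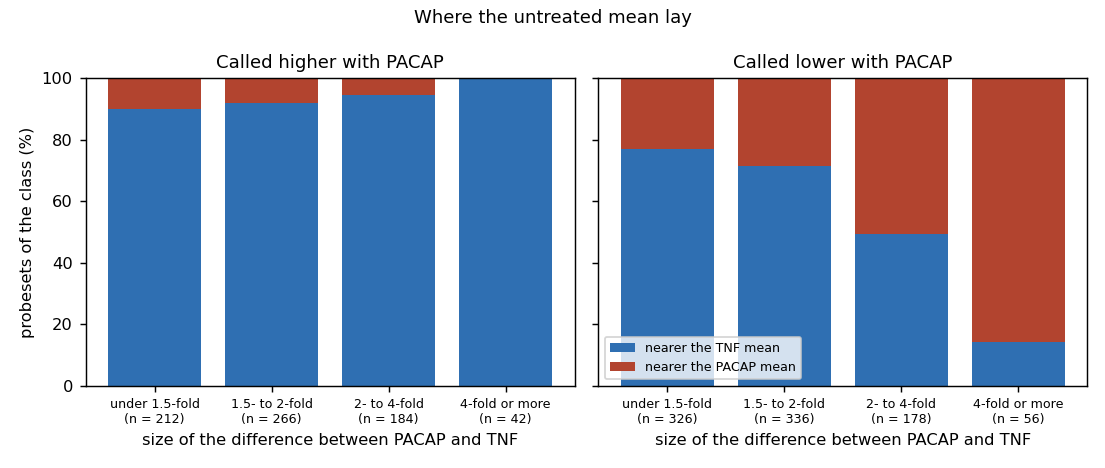
Share of called probesets (%) whose untreated mean was nearer to the TNF mean (blue) or to the PACAP mean (red), by the size of the difference between PACAP and TNF, with the number of probesets per class under each bar. The blue share goes from 90.1% to 100% on the left and from 77.0% to 14.3% on the right.

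Calls were commoner among well-expressed probesets. With the probesets sorted by mean level into 4 equal bins, the dimmest bin spanned 2.58 to 4.75 (log2) over the 6 arrays, and 57 of its 6005 probesets were called, or 0.949%. The share was 4.66%, 9.98% and 11.1% in the bins above. Why fewer dim probesets were called was not tested. The median SE was 0.0934 in the dimmest bin and 0.110 to 0.128 in the others, on the same RMA scale. The split by direction also moved with level, since 36.8% of the calls in the dimmest bin and 49.8% of those in the brightest were higher with PACAP. The median level was 8.37 for probesets higher with PACAP, 7.91 for those lower with PACAP and 6.67 for all tested.

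**Figure D4:**
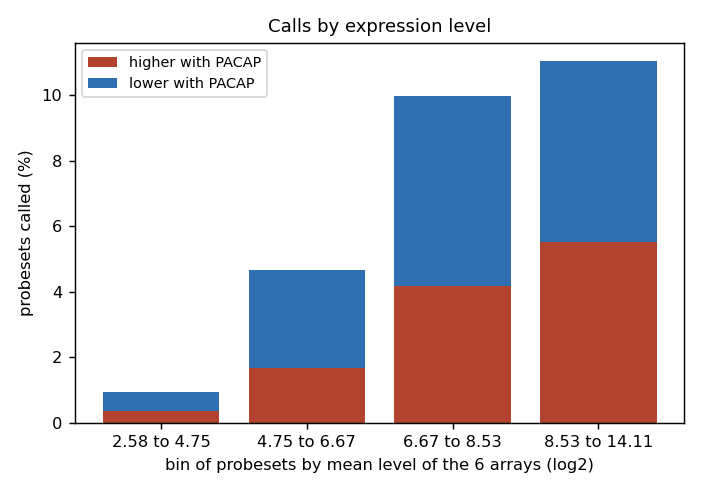
Share of probesets (%) called higher (red) or lower (blue) with PACAP than with TNF in each of 4 equal bins of probesets by mean log2 level of the 6 arrays. The total goes from 0.949% in the dimmest bin to 11.1% in the brightest.

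All 1600 called probesets had 3 PACAP values that did not overlap with the 3 TNF values. Over all probesets tested, 5578 (23.2%) had groups without overlap, so separation alone was far commoner than a call. A further 80 probesets differed by at least 2-fold in the means without being called, 34 above and 46 below 0, and 63 of them had groups without overlap. Their arrays were more scattered, with a median SD of 0.464 within the PACAP and 0.555 within the TNF group, against 0.207 and 0.200 for the 460 called at that size. The largest of the 80 differed by 2.74 on the log2 scale.

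The sizes of the differences varied by replicate number. The 1600 calls went the same way in each of the 3 same-numbered pairs, which their choice from these arrays favours. Their median log2 difference was 0.84, 0.77 and 0.63 in pairs 1, 2 and 3 for the probesets higher with PACAP, and -0.75, -0.82 and -0.56 for those lower. The pair of replicate 3 arrays thus showed the smallest median difference in both directions. Over all probesets, which are not independent, the differences correlated between pairs 1 and 2 at a Pearson r of 0.84 and at 0.56 and 0.68 between those pairs and pair 3. Each pair has its own arrays and shares no array with another.

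At the probesets called at least 2-fold, replicate 3 tended to be the array nearest to the opposite group. Among the 234 lower with PACAP, TNF replicate 3 was the lowest TNF array at 179, or 76.5%, against 34.1% of all probesets, and among the 12 with the largest differences it was the lowest at 12. Among the 226 higher with PACAP, TNF replicate 3 was the highest TNF array at 160 (70.8%, against 47.3% of all) and PACAP replicate 3 the lowest PACAP array at 128 (56.6%, against 32.8% of all). Among the 234, PACAP replicate 3 was the highest PACAP array at 133 (56.8%, against 39.4% of all). These counts are descriptions. TNF replicate 3 had the largest 3' minus 5' level of the 6 arrays. PACAP replicate 3, at 0.34 for the bovine controls and 1.06 for the spike-ins, lay within the range of the other arrays. The part of this measure in the counts was not tested.

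The calls of the other arrays were also looked up on the replicate 3 arrays, whose values did not choose them. By the design text the arrays are technical repeats, so replicate 3 is not known to be separate material. Agreement there is therefore not independent support. Of the 1621 probesets called higher with PACAP on replicates 1 and 2 alone, 1478 (91.2%) were higher with PACAP in replicate 3, and of the 2205 called lower, 1954 (88.6%) were lower there. For comparison, of all probesets tested that were above 0 in replicates 1 and 2, 55.6% were above 0 in replicate 3, and of those below 0, 63.6% were below. Those probesets had smaller differences in replicates 1 and 2, with medians of 0.14 and -0.16 (log2). The called probesets had medians of 0.60 and -0.60 there, so the shares are not matched for size. The directions held more often among the larger differences, at 305 of 313 that were at least 2-fold higher and 392 of 406 at least 2-fold lower. The sizes were smaller in replicate 3. The median of the 313 was 1.33 in replicates 1 and 2 and 0.95 in replicate 3, that of the 406 was -1.32 and -0.82, and 150 and 153 were still at least 2-fold the same way. The values of replicates 1 and 2 chose these probesets, which favours larger sizes there, and the part of this in the decrease was not tested.

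**Figure D5:**
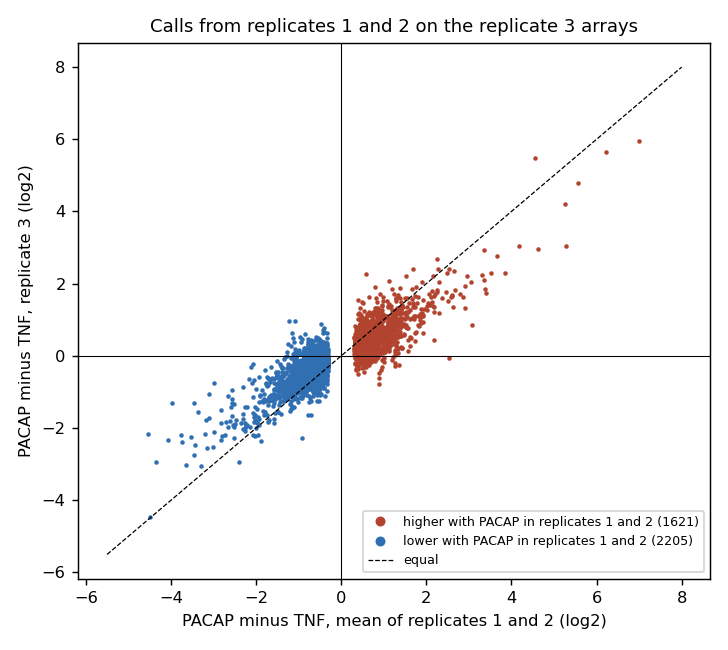
Difference between PACAP and TNF (log2) in replicates 1 and 2 (horizontal) and on the replicate 3 arrays (vertical), for the 1621 probesets called higher (red) and the 2205 called lower (blue) with PACAP on replicates 1 and 2 alone; the dashed line marks equal differences. Most points lie on the same side of 0 on both axes, at 91.2% and 88.6%, and mostly nearer to 0 on the vertical axis.

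A smaller core of calls was kept whichever single array was left out. These fits used arrays that had also chosen the calls. Leaving out replicate 1 or 2 of a group also kept the other, which was close to it. When each of the 6 arrays was left out in turn, 187 of the 704 probesets higher with PACAP and 209 of the 896 lower with PACAP were called the same way in all 6 fits. The core held 130 and 141 of the probesets called at least 2-fold. Its median log2 difference was 1.23 and -1.24 in the 2 directions, against 0.65 and -0.61 for the calls outside it, and its smallest differences were 0.55 and 0.57. The 4 probesets described singly above were called in every fit in which they were tested.

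Probesets whose IDs share the leading number after "Bt" come from the same sequence cluster of the array's design and often differ in their probes. There were 3755 numbers with several probesets. For 52 of them a probeset was called at least 2-fold higher with PACAP, and the largest such call was taken as the lead. Of their 72 other probesets 63 (87.5%) were also above 0 and 31 were called higher. Of all probesets tested, 52.6% were above 0 and 2.93% were called higher. For the 54 numbers led by a call at least 2-fold lower with PACAP, 68 of the 72 other probesets (94.4%) were below 0 and 42 were called lower, against 47.4% and 3.73% of all probesets tested. Over all called probesets, 116 numbers had 2 or more calls, and in 114 of them the calls went 1 way. Some of the largest differences were such repeats, since the 12 largest in favour of PACAP held 10 numbers and the 12 largest in favour of TNF held 11. The probeset ranked the fifth in favour of PACAP has the number of Bt.12930.1.S1_a_at, and stood at 9.44 ± 0.84 with PACAP and 4.58 ± 0.25 with TNF (SD, n = 3).

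The 2 numbers with calls in both directions were looked at after their values were seen. In 1 of them, with 2 probesets, the log2 difference was -0.36 (SE 0.07) at a level of 8.25 ± 0.04 with TNF and 0.43 (SE 0.08) at 6.87 ± 0.09. In the other, with 12 probesets, a probeset at a mean of 7.88 with PACAP and 6.29 with TNF differed by 1.60 (SE 0.23), while a bright one at 12.19 and 12.57 differed by -0.38 (SE 0.09). The last of these calls was marginal, with an adjusted p that equals the threshold of 0.05 after rounding.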

How the data were processed

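The deposited values are log2 expression levels, 1 per probeset and array, made by the authors with Affymetrix Expression Console and RMA, per the submitters' processing notes; no version or setting is stated there, and no detection calls were used. RMA corrects background, equalises the arrays and combines the probes of a probeset. Each biotin labelling reaction used 5 ug of total RNA, per the labels.

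Of 24128 probesets, 112 controls (IDs starting with AFFX) were left out and 24016 were tested without further filtering. Group means of the 3 PACAP and 3 TNF arrays were fitted with limma 3.58.1 in R 4.3.3 and moderated by empirical Bayes (4 residual degrees of freedom). Tests were two-sided, with Benjamini-Hochberg adjustment over all probesets tested, and a call needed an adjusted p under 0.05. The script was tested on simulated data. Named probesets are the 2 called with the largest difference in each direction; 26 gene lists could not be tested for want of gene names. The rule for members used array titles alone, but members and lists were chosen with earlier results of these data known.

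Deviations from the group means correlated between same-numbered PACAP and TNF arrays at 0.23, 0.53 and 0.57, each over the threshold of 0.1 for taking the numbers as pairs; no label explains the numbers, and PACAP replicate 2 correlated at 0.61 with TNF replicate 1. Alternatives were the replicate block, all 9 arrays, subsets of arrays, filters on dim probesets, other normalizations, moderation, array weights and a threshold of 0.01; 1 more, the position of untreated cells on replicates 1 and 2, was added after seeing the data. The number of arrays limits the precision.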

Additional observations from a re-analysis of the deposited data

How the results depend on the processing

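The main counts, 704 higher and 896 lower with PACAP (226 and 234 at least 2-fold), moved by over 1.5 times in these settings. The replicate block gave 1188 and 1461 with 6 arrays, and 1656 and 2035 with all 9 arrays. Replicates 1 and 2 only gave 1621 and 2205, with 406 at least 2-fold lower. Array weights gave 1892 and 2334. A threshold of 0.01 gave 230 and 259, with 148 at least 2-fold higher. Leaving out 1 array gave 203 to 972 higher and 226 to 1272 lower, and 134 to 269 and 136 to 334 at least 2-fold. Among these fits, only those without a replicate 1 or 2 array moved counts by over 1.5 times. They gave 203 to 313 higher and 226 to 368 lower. Of the counts at least 2-fold, both moved without TNF replicate 1 or 2, and neither without PACAP replicate 1 (165 and 170). Without PACAP replicate 2 only the lower one moved (159 and 155). Without TNF replicate 3 (972, 1272, 269 and 334) or PACAP replicate 3 (762, 1008, 267 and 272), all 4 counts stayed within 1.5 times. With an array fewer in a group the fit has 3 residual degrees of freedom. All 9 arrays without the block (953 and 1226) kept all 4 counts within 1.5 times, as did the filters, normalizations, moderation and control probesets. So did averaging replicates 1 and 2 with the replicate block (627 and 698), where 63.3% of the main calls were called again and the rise under the block was not seen. That fit had 1 residual degree of freedom, against 2 for the block with 6 arrays, and gave replicate 3 more weight, so the 2 are not like for like. The cause of these changes was not tested. The 4 named probesets kept their direction and call in all 20 alternatives, with the highest adjusted p at 0.0175, so the block changed no call among them. The share of calls that were higher with PACAP ran from 42.4% to 48.8%, against 44.0%.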
